A study of Mus musculus with 10 samples.

Results

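The NF-kappaB family and its inhibitors were examined as 10 genes: the subunit genes Nfkb1, Nfkb2, Rela, Relb and Rel, and the inhibitor and regulator genes Nfkbia, Nfkbie, Nfkbiz, Tnfaip3 and Bcl3. NF-kappaB subunits act as dimers that are held in the cytoplasm by IkappaB proteins until kinases mark these inhibitors for destruction, after which the dimers enter the nucleus and switch on inflammatory genes. Several of the inhibitors are themselves targets of NF-kappaB and so shut the response down again. In the airway the pathway drives the production of cytokines, chemokines and adhesion molecules by epithelial cells and leukocytes. A methylated cytosine in a CpG is a stable DNA mark that is usually absent from active CpG-rich promoters and present in gene bodies.

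Windows were taken by their position. A window of 1000 bp, taken every 500 bp, was included when it overlapped the RefSeq span of a gene on GRCm38 (mm10) or the 5 kb on either side. Of the 446336 deposited windows, 241 met this rule, and 232 of them had at least 20 CpG calls in every mouse, as did 421759 windows in all. Methylation of a window is the percentage of its calls that were methylated, and the locus methylation of a gene is the mean over its windows. Nfkb1 had 48 windows, Nfkbiz 33, Bcl3 32, Nfkbie 28, Relb 19, Nfkb2 18, Nfkbia 18, Rel 15, Rela 11 and Tnfaip3 10. Neighbouring windows share 500 bp, so they are not separate measurements.

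Lung DNA came from 10 female BALB/c mice, which by the study's methods were 8 weeks old when purchased. The saline group (n = 3) was injected with saline only. The OVA group (n = 3) was sensitised with 50 µg of ovalbumin in alum on Days 0 and 7 and challenged through the nose with 25 µg for 4 days from Day 12. The DSE group (n = 4) was sensitised and challenged in the same way and took 200 mg/kg of Descurainia sophia seed extract by mouth from Day 9 to Day 15. The study's methods also list oral vehicle over these days, without saying which group took it. Its libraries are named Herb in the labels, and DSE is the only herb of the study. The comparison of OVA with saline asks what sensitisation with ovalbumin in alum and the challenge change together. None of these groups had alum without ovalbumin, so their parts cannot be told apart. The comparison of DSE with OVA asks what the extract changes, and that of DSE with saline what differs after exposure and extract. A further comparison sets all 7 OVA-exposed mice against saline. Comparisons that use the same group share its mice.

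With each position counted once, the 10 libraries held 153328794 to 205414739 calls, and the member windows had a median of 636 to 852 calls per mouse. Mean methylation over all windows was 50.9% to 51.5% in saline mice and 51.7% to 52.8% in OVA-exposed mice, and the median pooled difference of all windows was 0.73 percentage points for OVA-exposed against saline mice. Across the member windows the mean was 42.6% to 42.8% in saline mice and 41.8% to 42.9% in exposed mice, so these groups overlapped. Whole lung holds many cell types. Windows within 1 kb of the start of 11 of 14 leukocyte marker genes averaged 48.9% to 49.7% in saline, 40.8% to 45.2% in OVA and 42.7% to 45.4% in DSE mice, with 8 of the 11 genes lower in each exposed group, among them Ptprc, which encodes the leukocyte antigen CD45. Starts of 6 of 7 epithelial marker genes averaged 24.9% to 26.3%, 26.7% to 28.0% and 27.1% to 29.5%, and those of 4 of 6 endothelial genes 27.9% to 30.2%, 33.1% to 36.4% and 31.6% to 33.8%, in the same order. These marker levels moved with exposure, and their part in the differences below was not tested. A change in the mix of cells and a change of methylation within cells cannot be told apart in such tissue.

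Most member genes start in CpG-rich DNA that carried almost no methylation. In saline mice 57 of the 232 member windows (24.6%) were under 10%, 142 (61.2%) lay from 10% to 80% and 33 (14.2%) reached 80%, against 15.8%, 61.8% and 22.4% of all windows. The 57 windows of low methylation held a median of 39 CpGs per 1000 bp, and the 2 other classes 15 and 14.

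**Figure D1:**
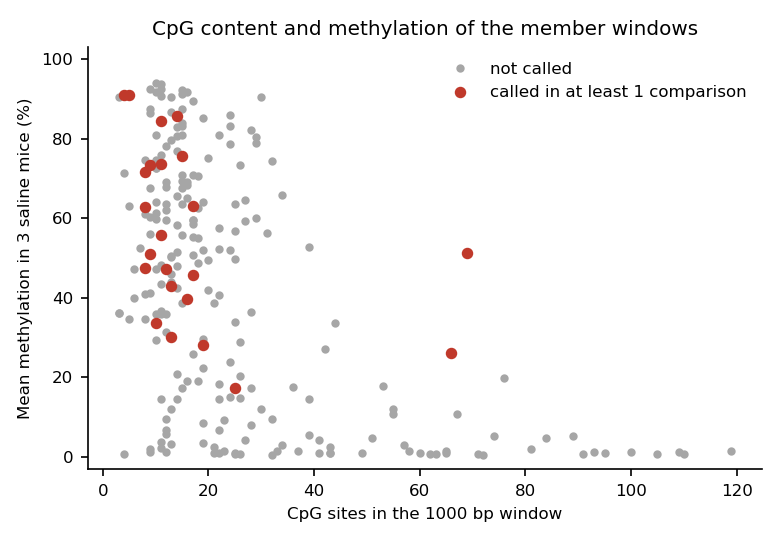
CpG sites in each of the 232 member windows (x axis, number per 1000 bp) against mean methylation in the 3 saline mice (y axis, percent); red points are windows called in at least 1 comparison. A window under 10% in saline cannot fall by the 10 percentage points that a call needs, and none was called higher. The 2 called windows with 69 and 66 CpGs, both at the Bcl3 start, stand apart at 51.4% and 26.2%.

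The window nearest the gene start had almost no methylation at 6 genes. Across the 10 mice it ranged from 0.75% to 1.28% at Rel, from 0.81% to 1.63% at Rela, from 0.52% to 1.51% at Nfkbia, from 0.68% to 1.70% at Nfkbiz and from 1.06% to 1.88% at Tnfaip3. At Nfkbie, whose product IkappaB epsilon holds Rela and Rel dimers in the cytoplasm, it was 0.41% to 1.33%. For Nfkb2, which encodes the precursor processed in the non-canonical pathway, the gene span begins at a predicted transcript, and the window taken as nearest its start, centred 2506 bp into the span, held 8.0% to 14.6%. The Nfkb2 window centred at -195 bp from the nearest curated start, chosen after its values were seen, was at 0.51% to 1.36%. Nfkb1, which encodes the precursor of the most abundant DNA-binding subunit, had 8.6% to 15.9% in the window nearest the start of its span, which is centred at -453 bp from the nearest curated start. The window centred 47 bp past that curated start, chosen after its values were seen, was at 0.16% to 2.58%. Relb stood at 3.5% to 8.7%. None of these start windows was called in any comparison. Bcl3 differed from the others in its start window, with 8.3% to 35.4%. A Bcl3 window centred at -1176 bp from the start, chosen after its values were seen, was at 0.41% to 3.98%.

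Matches to the kappaB consensus, the site that NF-kappaB dimers bind, were looked for on both strands of the RefSeq promoter sequences of GRCm38 (250 bases before to 50 after a start). Of 32851 promoters, 8.46% held a match. The table holds 10 promoters for 7 of the members, and 8 of these 10, from 6 members, held a match. Nfkb1, Relb and Nfkbiz are not in it. The Rela promoter and another Tnfaip3 promoter held no match. The upstream 250 bases of an inhibitor, of the deubiquitinase gene and of a subunit are shown as examples with a match. Their starts were almost free of methylation in all 10 mice, as was that of Rela. Bases that match the consensus are in capitals, and each sequence reads 5′ to 3′ on the gene's strand. A match is a description of the letters and not evidence of binding.
Nfkbia, chr12:55492648-55492897, minus strand: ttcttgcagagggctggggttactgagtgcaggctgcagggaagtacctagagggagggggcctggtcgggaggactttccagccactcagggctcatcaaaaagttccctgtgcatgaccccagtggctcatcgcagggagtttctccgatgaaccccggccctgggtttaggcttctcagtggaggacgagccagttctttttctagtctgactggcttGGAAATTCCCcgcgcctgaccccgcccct
Tnfaip3, chr10:19015411-19015660, minus strand: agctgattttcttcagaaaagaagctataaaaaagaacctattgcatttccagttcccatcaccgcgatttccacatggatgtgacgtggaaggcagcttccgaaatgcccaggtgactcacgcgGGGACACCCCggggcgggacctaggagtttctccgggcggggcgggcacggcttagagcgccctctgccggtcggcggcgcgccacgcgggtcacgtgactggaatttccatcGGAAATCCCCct
Rel, chr11:23770970-23771219, minus strand: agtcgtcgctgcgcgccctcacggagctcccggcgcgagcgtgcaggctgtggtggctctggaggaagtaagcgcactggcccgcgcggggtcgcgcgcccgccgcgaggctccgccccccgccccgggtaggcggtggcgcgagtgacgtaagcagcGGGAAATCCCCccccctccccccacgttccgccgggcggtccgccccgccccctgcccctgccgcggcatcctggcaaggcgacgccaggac

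**Figure D2:**
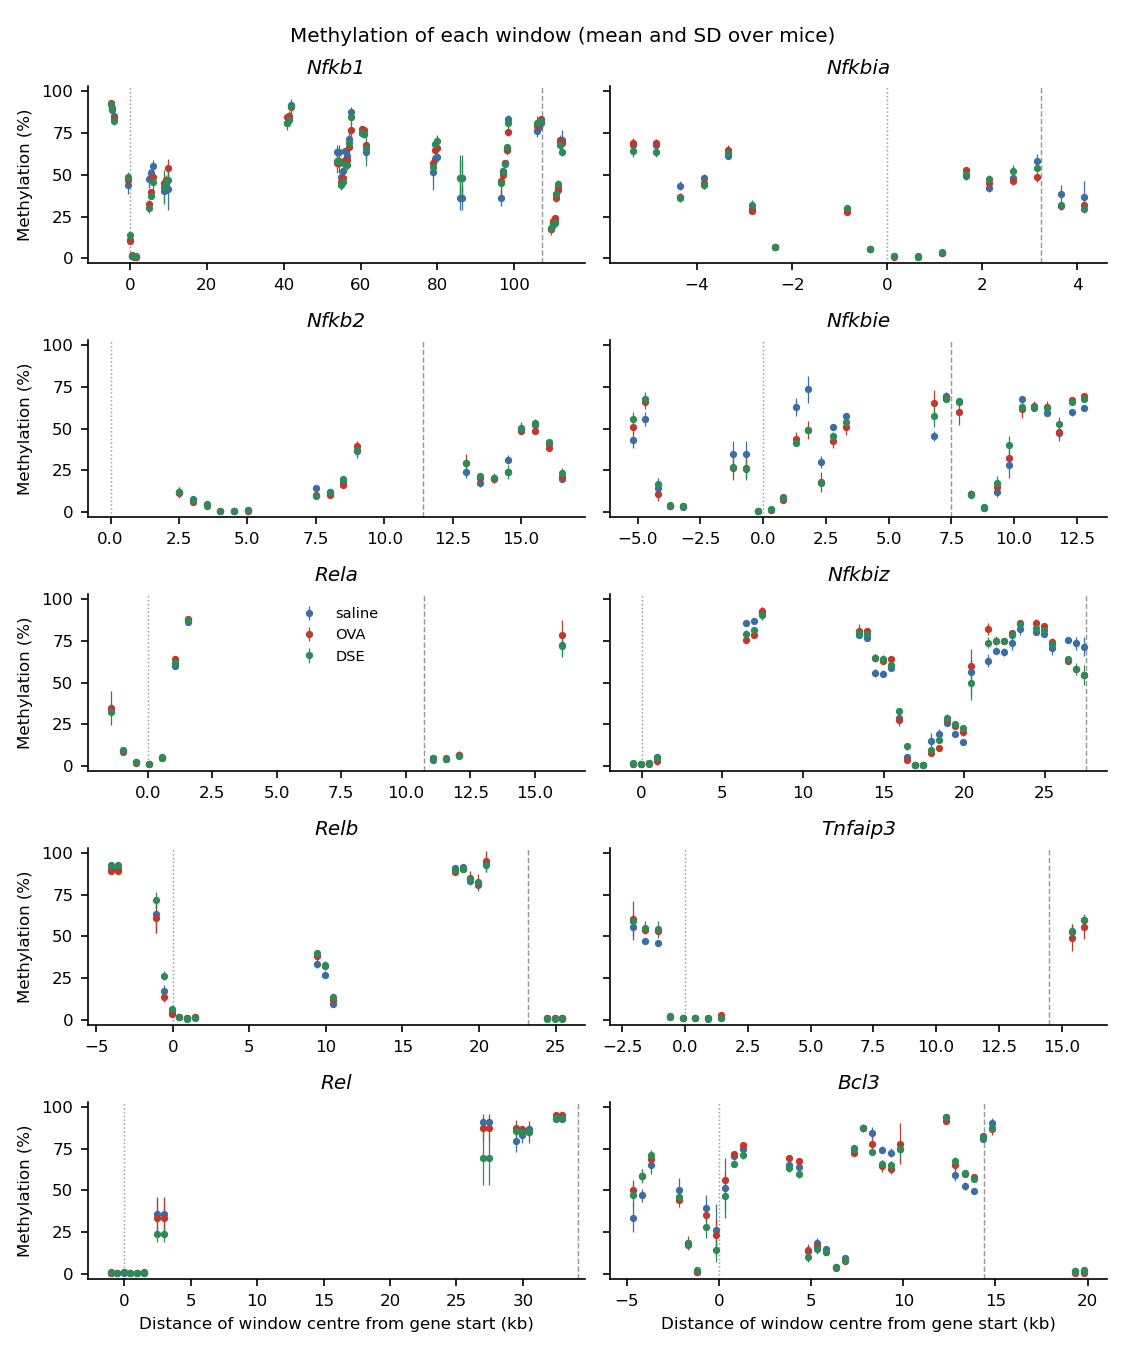
Methylation of each window (y axis, percent; points are group means and bars SDs over 3 saline, 3 OVA and 4 DSE mice) against the distance of its centre from the gene start (x axis, kb, on each gene's strand), with the start dotted and the gene's end dashed. Methylation drops toward 0% near the starts of Nfkb1, Rela, Relb, Rel, Nfkbia, Nfkbie, Nfkbiz and Tnfaip3, and at Nfkb2 near its curated starts. It stays between 14.3% and 26.2% in the group means of the Bcl3 start window. The OVA and DSE groups separate from saline, but not from each other, inside Nfkbie between 1300 and 2300 bp and at the far end of Nfkbiz.

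Averaged over each locus, methylation ran from Nfkb1 at the top to Nfkb2 at the bottom. In saline mice locus methylation was 54.9% ± 0.68 (SD, n = 3) at Nfkb1, 49.0% ± 2.05 at Bcl3, 48.2% ± 0.37 at Nfkbiz, 46.2% ± 2.45 at Rel and 41.3% ± 0.38 at Relb. It was 38.2% ± 0.66 at Nfkbie, 35.5% ± 0.76 at Nfkbia, 26.9% ± 0.63 at Tnfaip3, 25.9% ± 0.33 at Rela and 20.3% ± 0.62 at Nfkb2. The saline mice overlapped between Bcl3, Nfkbiz and Rel, and every other neighbour in this order was separated in all 3 saline mice. In DSE mice the means of Bcl3 (48.0%) and Nfkbiz (48.7%) changed places, as did those of Rel (42.2%) and Relb (43.3%). Locus levels depend on which windows the capture covered. The flanks of some loci also reach into other genes, such as Clasrp and Clptm1 at Relb.

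**Figure D3:**
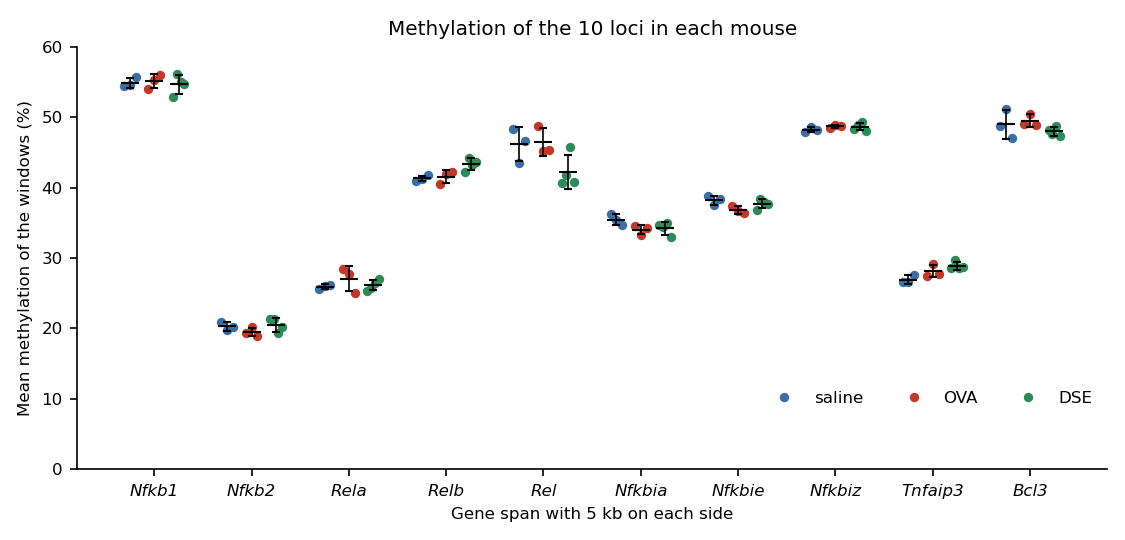
Locus methylation of each gene (y axis, mean percent over its windows) in every mouse; points are mice, and the black marks are the mean and SD of 3 saline, 3 OVA and 4 DSE mice. The groups lie close together at each gene, with the widest gap at Rel, from 46.4% in OVA to 42.2% in DSE mice.

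No member locus passed an adjusted p of 0.05 in limma, a linear model fitted across all 32824 loci with moderated variances. Among all loci 12.5% passed for OVA against saline, 0.0274% for DSE against OVA, 18.8% for DSE against saline and 22.2% for OVA-exposed against saline. At an unadjusted limma p under 0.05 the members numbered 0, 2, 3 and 1 of 10 in these comparisons, against 31.1%, 9.15%, 35.7% and 37.7% of all loci. The median member difference was 0.24 percentage points for OVA minus saline and -0.01 for DSE minus saline, where the median of all loci was 1.02 and 1.05.

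Tnfaip3 came closest. It encodes a ubiquitin-editing enzyme that switches NF-kappaB signalling off. Its locus stood at 26.5%, 26.5% and 27.6% in saline, 27.5%, 29.1% and 27.8% in OVA and 28.5%, 29.8%, 28.6% and 28.7% in DSE mice. The DSE mice lay above all saline mice, with a difference of 2.01 percentage points (SE 0.64, limma adjusted p = 0.051, exact permutation p = 0.0571, two-sided, the smallest that 4 against 3 mice allow). Over the gene span alone, with 4 windows, DSE minus saline was 0.042 (SE 0.24, limma adjusted p = 0.92). The OVA mice overlapped with saline at the lower end when the flanks were included, with a difference of 1.25 (SE 0.68, limma adjusted p = 0.237).

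Rel, which encodes the c-Rel subunit of lymphoid and myeloid cells, had the widest range of group means. Its locus methylation was 48.4%, 43.5% and 46.7% in saline, 48.7%, 45.2% and 45.4% in OVA, and 40.6%, 41.8%, 45.7% and 40.8% in DSE mice. DSE mouse 3 lay among the other groups and the remaining DSE mice below them. DSE minus OVA was -4.22 percentage points (SE 1.55, limma adjusted p = 0.418) and DSE minus saline -3.97 (SE 1.55, limma adjusted p = 0.0954). Among the 15 windows 3 pairs of neighbours each hold identical counts. The pair in exon 10 had 405 to 505 calls and was kept throughout. The other 4 windows, 2 pairs in introns 9 and 1, had as few as 20 and 30 calls in a mouse. Without these 4 windows, an alternative chosen after seeing the data, the group means were 39.9% ± 1.39 in saline, 41.3% ± 0.48 in OVA and 40.7% ± 0.82 in DSE mice, and DSE minus OVA was -0.62 and DSE minus saline 0.80. When all calls of the locus were pooled in place of averaging windows, the sign turned, to 2.67 and 1.82 percentage points (limma adjusted p = 0.00265 and 0.017). Pooling weights each window by its calls. The start window, at 0.75% to 1.28%, held 3807 to 6926 calls per mouse, and the intron 9 windows 20 to 83. Whether this weighting bears on the turn of sign was not tested. The share of all loci that passed with pooled calls is not given here.

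Relb, the partner of processed Nfkb2 in the non-canonical pathway, was at 41.0% to 41.8% in saline, 40.5% to 42.2% in OVA and 42.2% to 44.2% in DSE mice. DSE minus saline was 2.00 percentage points (SE 0.73, limma adjusted p = 0.0781), with no overlap, and without DSE mouse 1 it was 2.38 (limma adjusted p = 0.0479). The other 7 loci moved by at most 1.52 percentage points between any pair of groups.

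Single windows were compared by a likelihood ratio test on pooled calls, and a window was called at an adjusted p under 0.01 with a difference of at least 10 percentage points. For OVA against saline 5 member windows were called higher and 9 lower, 2.16% and 3.88% of the 232, against 4.83% and 2.6% of all windows. DSE against OVA gave 1 higher and 4 lower, or 0.431% and 1.72% (background 0.888% and 0.699%). DSE against saline gave 6 higher and 12 lower, or 2.59% and 5.17% (background 5.02% and 3.09%), and OVA-exposed against saline 6 and 10, or 2.59% and 4.31% (background 4.63% and 2.79%). Groups did not overlap in 67, 22, 54 and 39 member windows, which is 28.9%, 9.48%, 23.3% and 16.8%, where all windows gave 27%, 10.3%, 24.3% and 14.2%. The shares without overlap were close to those of all windows. The called shares were below the background for higher windows and above it for lower ones in all 4 comparisons, a difference that was not tested, and neighbouring windows count the same DNA more than once. This test treats every call as independent. An F test that also allows for spread between mice called no member window in any comparison. The share of all windows that it called is not given here. An unadjusted F test p under 0.05 was found in 47, 13, 49 and 56 of the 232, against 15.4%, 7.35%, 21.1% and 23.5% of all windows. Limma on M-values (log2 of methylated over unmethylated calls) gave an adjusted p under 0.05 in 0, 1, 19 and 30 member windows, with a background of 0%, 0.232%, 7.84% and 10.2%. At an unadjusted limma p under 0.05 there were 46, 15, 61 and 55, against 20.6%, 9.82%, 25.7% and 25.5% of all windows.

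Of the 30 windows past limma for OVA-exposed against saline, 11 were at Nfkbiz, 7 at Bcl3, 7 at Nfkbie and 2 at Nfkb1, while Nfkb2, Nfkbia and Tnfaip3 had 1 each.

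Nfkbie held the windows that fell furthest. In its intron 1, centred 1800 bp past the start (chr17:45557001-45558000, 204 to 386 calls), methylation was 65.8%, 81.9% and 73.3% in saline, 55.4%, 46.9% and 45.6% in OVA, and 45.7%, 49.7%, 52.0% and 49.5% in DSE mice. All 7 exposed mice were below all 3 saline mice. The pooled difference was -23.3 percentage points for OVA and -24.2 for DSE against saline, and OVA-exposed mice differed from saline with a limma adjusted p of 0.00302 and an exact permutation p of 0.0167, the smallest that 7 against 3 mice allow. The OVA comparison alone gave a limma adjusted p of 0.0687. The windows on either side, centred 1300 and 2300 bp past the start, also separated all exposed from all saline mice, although the OVA call of the latter was lost without OVA mouse 2 or 3 or saline mouse 1. The former was at 57.3% to 67.3% in saline and 39.0% to 48.3% in exposed mice, and the latter at 26.4% to 33.9% and 13.9% to 24.9%. DSE and OVA mice overlapped in all 3 windows.

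The most CpG-rich 300 bases of this window are shown with CpGs in capitals, since this stretch holds 6 of its 11 CpGs. The methylation values are means over the whole window and cannot be placed on single CpGs.
Nfkbie, intron 1, chr17:45557053-45557352, plus strand: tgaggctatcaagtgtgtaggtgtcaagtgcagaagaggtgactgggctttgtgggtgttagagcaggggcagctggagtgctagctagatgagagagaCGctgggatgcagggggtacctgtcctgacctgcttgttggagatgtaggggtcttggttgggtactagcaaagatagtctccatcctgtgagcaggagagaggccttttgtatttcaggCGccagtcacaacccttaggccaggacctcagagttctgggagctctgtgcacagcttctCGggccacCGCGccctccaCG

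Other Nfkbie windows moved the opposite way. An upstream window centred at -4700 bp from the start was at 51.1% to 59.8% in saline, 61.1% to 70.6% in OVA and 64.6% to 72.5% in DSE mice, and the groups did not overlap with saline. It was called in both exposed groups, and the OVA call (10.2 percentage points) was lost without OVA mouse 2 or 3 or saline mouse 2. The window at -5200 bp was called in DSE alone (12.8). A window over exon 6 (chr17:45562001-45563000, 37 to 81 calls) was at 42.6% to 48.8% in saline, 56.8% to 71.0% in OVA and 50% to 65.3% in DSE mice, and its call in OVA was lost when OVA mouse 2, OVA mouse 3 or saline mouse 2 was left out. With windows of both signs, the locus mean moved by -1.41 percentage points in OVA (SE 0.70, limma adjusted p = 0.197).

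The Nfkbie result depended on the 5 kb flanks, of which the downstream one reaches into Slc35b2 and Hsp90ab1. Over the gene span alone, with 11 windows, methylation was 42.1%, 43.2% and 42.2% in saline, 38.1%, 36.3% and 37.1% in OVA, and 36.8%, 38.3%, 37.3% and 36.7% in DSE mice. Every exposed mouse was below every saline mouse. OVA minus saline was -5.38 percentage points (SE 0.82, limma adjusted p = 0.00722), DSE minus saline -5.23 (SE 0.77, adjusted p = 0.0043) and DSE minus OVA 0.15 (SE 0.77, adjusted p = 0.976). Among 25746 gene spans 13.1%, 19.2% and 0.249% passed in these comparisons, and 21.7% for OVA-exposed against saline. Nfkbie was the only one of the 10 members that passed there in the comparisons with saline.

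Nfkbiz, which encodes the nuclear IkappaB zeta needed for a subset of secondary response genes such as Il6, changed along its length. At its last exon, which holds the 3′ untranslated region (chr16:55811001-55812000, 459 to 875 calls), methylation was 65.8%, 77.6% and 71.1% in saline, 56.3%, 52.5% and 55.1% in OVA, and 58.5%, 46.3%, 59.8% and 53.5% in DSE mice. Exposed mice were all lower (pooled difference -16.4 for OVA and -16.7 for DSE, limma adjusted p = 0.00781 for OVA-exposed against saline). The next 2 windows into the exon fell too, and at the furthest of them the saline mice were at 74.5% to 76.5% and all exposed mice at 62.7% to 66.2%.

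Inside the gene the sign changed. The window over exon 6 (chr16:55817001-55818000, 59 to 376 calls) was at 59.6%, 62.5% and 67.4% in saline, 79.7%, 80.4% and 86.2% in OVA, and 69.4%, 75.0%, 77.7% and 73.6% in DSE mice. The 3 groups did not overlap, with DSE in between. Their call counts did not overlap either, at 104 to 146 in saline, 59 to 97 in OVA and 212 to 376 in DSE mice. Whether this depth bears on the methylation values was not tested. OVA minus saline was 19.0 percentage points and DSE minus saline 10.1, with limma adjusted p-values of 0.0607 and 0.0467. DSE minus OVA was -8.95, which was not called (likelihood ratio adjusted p = 0.0227, limma adjusted p = 0.342, exact permutation p = 0.0571). The DSE against saline call was lost when any of 5 of the 7 mice was left out (DSE mice 2, 3 and 4, and saline mice 1 and 2). A window in intron 2 (chr16:55832001-55833000) fell from 84.2% to 86.9% in saline to 73.9% to 76.8% in OVA, with DSE at 76.5% to 81.8%, and its OVA call was lost without OVA mouse 1 or saline mouse 1. Between the last exon and this window, 6 windows, that over exon 6 among them, passed limma in the upward direction for OVA-exposed against saline. In the one over exons 4 to 6, centred 19954 bp past the start, methylation was 13.2% to 15.8% in saline and 18.0% to 24.0% in exposed mice, and in another, in intron 2 and centred 14454 bp past the start, 53.9% to 58.3% and 61.4% to 67.2%. Groups did not overlap in 57.6% of the 33 Nfkbiz windows for OVA against saline, against 27% of all windows, where neighbours share DNA and are counted more than once.

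The stretch of 300 bases with 12 of the 17 CpGs of the exon 6 window runs from the coding exon into intron 6 and is printed with CpGs in capitals.
Nfkbiz, exon 6 and intron 6, chr16:55817627-55817926, minus strand: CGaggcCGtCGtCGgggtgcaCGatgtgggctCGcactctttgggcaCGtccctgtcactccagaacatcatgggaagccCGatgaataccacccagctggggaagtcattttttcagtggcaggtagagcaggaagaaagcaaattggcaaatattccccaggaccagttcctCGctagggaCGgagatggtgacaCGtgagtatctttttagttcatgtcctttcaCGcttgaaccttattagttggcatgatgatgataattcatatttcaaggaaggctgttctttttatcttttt

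Both called windows of Nfkb1 were in its intron 1 and fell. In the window chr3:135686501-135687500 (269 to 415 calls), centred 4969 bp past the gene start, methylation was 41.9%, 47.2% and 53.5% in saline, 33.1%, 29.9% and 34.5% in OVA, and 27.7%, 27.8%, 30% and 34.0% in DSE mice. All exposed mice were lower, and OVA and DSE mice overlapped. The pooled difference was -15.2 for OVA and -17.4 for DSE against saline (limma adjusted p = 0.00469 for OVA-exposed against saline). The overlapping window that starts 500 bp before it gave -11.3 and -13.4, and its call in OVA was lost without saline mouse 3. The other 46 Nfkb1 windows were not called. Of the 48 Nfkb1 windows, 18.8% had no overlap for OVA against saline and 6.25% for OVA-exposed against saline. Among all windows these shares were 27% and 14.2%. An uncalled window in intron 6 (chr3:135635501-135636500), chosen after its values were seen, was at 62.8% to 66.0% in saline and 54.5% to 62.1% in all exposed mice. Another over exon 20 (chr3:135593001-135594000), chosen in the same way, was at 80.9% to 85.6% in saline and 73.3% to 77.8% in OVA mice. DSE mice were at 77.6% to 87.1% there.
Nfkb1, intron 1, chr3:135687061-135687360, minus strand, 4 of the window's 8 CpGs in capitals: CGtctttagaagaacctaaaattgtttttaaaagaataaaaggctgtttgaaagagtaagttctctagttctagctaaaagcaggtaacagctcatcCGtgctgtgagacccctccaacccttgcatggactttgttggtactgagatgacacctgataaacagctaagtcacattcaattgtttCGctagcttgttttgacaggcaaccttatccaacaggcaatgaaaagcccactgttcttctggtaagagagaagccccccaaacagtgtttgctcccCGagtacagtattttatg

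Relb and Nfkbiz each had a start region in which DSE mice stood apart. The Relb window centred at -562 bp from its start (chr7:19629501-19630500, 1010 to 1337 calls) was at 15.03%, 15.5% and 21.9% in saline, 10.7%, 17.1% and 13.7% in OVA, and 24.2%, 27.4%, 30.3% and 24.8% in DSE mice. Every DSE mouse was above all 6 other mice. DSE minus OVA was 12.8 percentage points and was the only one of the 5 member calls in that comparison that was kept when each of the 7 mice was left out in turn (limma adjusted p = 0.0741, exact permutation p = 0.0571). DSE minus saline was 8.93, short of 10 points, with a limma adjusted p of 0.0479. The next window toward the gene, over the start itself, was at 3.5% to 5.5% in saline and OVA and 5.3% to 8.7% in DSE mice. The next one outward was at 52.0% to 76.0% in saline and OVA and 66.2% to 76.7% in DSE mice, with overlap.

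The Relb stretch is printed because it lies between the unmethylated start and the methylated flank, and its capitals mark 18 of the 25 CpGs of the window.
Relb, upstream, chr7:19629501-19629800, minus strand: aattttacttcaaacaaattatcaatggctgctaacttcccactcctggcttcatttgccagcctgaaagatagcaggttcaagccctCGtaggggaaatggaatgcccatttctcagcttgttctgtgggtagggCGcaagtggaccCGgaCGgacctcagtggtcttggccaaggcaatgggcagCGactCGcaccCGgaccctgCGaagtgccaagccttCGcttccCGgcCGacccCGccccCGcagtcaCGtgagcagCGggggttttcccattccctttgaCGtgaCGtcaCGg

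At Nfkbiz the window centred at -362 bp from the start of the shorter curated transcript (chr16:55822001-55823000, 1977 to 3030 calls, 74 CpGs) was at 5.3%, 3.1% and 7.3% in saline, 3.3%, 3.9% and 3.8% in OVA, and 14.3%, 10.5%, 13.2% and 9.6% in DSE mice. DSE mice were again above all others. DSE minus OVA was 8.15 percentage points (limma adjusted p = 0.03) and DSE minus saline 6.59 (limma adjusted p = 0.0361). This was the only member window with a limma adjusted p under 0.05 for DSE against OVA. It was below the limit of 10 points, and it was picked after its values were seen. The window at the start of the longer Nfkbiz transcripts, at 0.7% to 1.7%, did not separate the groups.

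**Figure D4:**
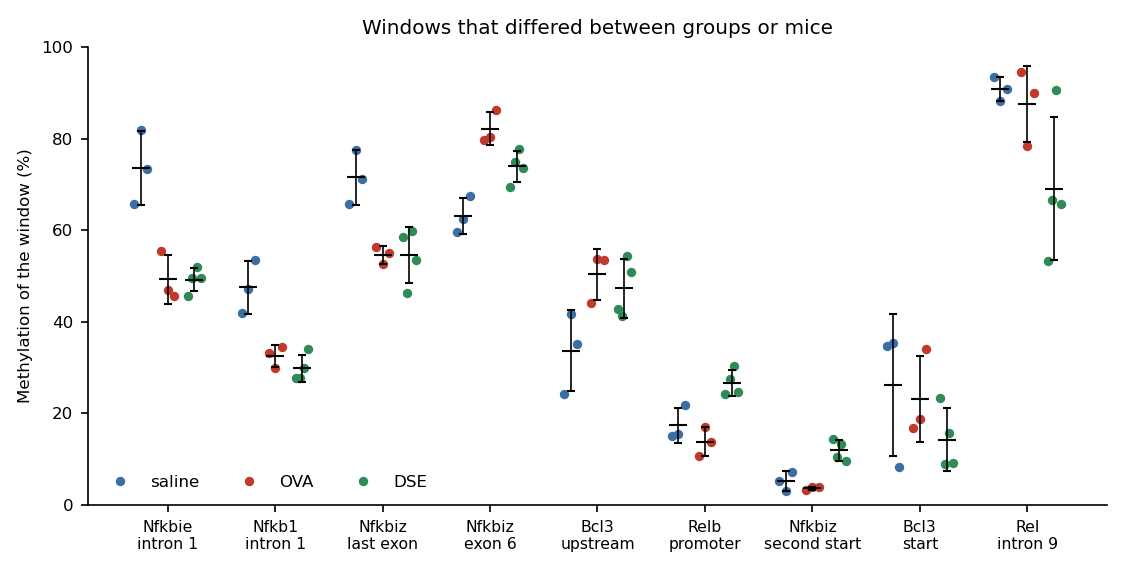
Methylation (y axis, percent) of 9 windows of Nfkbie, Nfkb1, Nfkbiz, Bcl3, Relb and Rel in every mouse; points are mice, and black marks are the mean and SD of 3 saline, 3 OVA and 4 DSE mice. Exposed mice are lower in the windows at Nfkbie and Nfkb1 intron 1 and the Nfkbiz last exon, DSE mice are higher at the Relb promoter and the second Nfkbiz start, and the mice of each group spread widely at the Bcl3 start.

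Bcl3 encodes a nuclear IkappaB protein that joins homodimers of the Nfkb1 and Nfkb2 products. Its start window (chr7:19822501-19823500, 66 CpGs, 153 to 712 calls) was at 34.7%, 35.4% and 8.3% in saline, 16.9%, 18.8% and 34.0% in OVA, and 23.4%, 8.8%, 15.7% and 9.3% in DSE mice. The spread within the saline group (SD 15.4) was larger than the difference of any pair of group means. Saline mouse 3 and DSE mice 2 and 4, with 497 to 712 calls, were at 8.3% to 9.3%. All other mice, with 153 to 378 calls, were at 15.7% to 35.4%. Whether depth bears on this spread was not tested. The window was called lower in DSE than in OVA at -10.1 percentage points (likelihood ratio adjusted p = 4.36e-09), yet the limma adjusted p was 0.592, the exact permutation p was 0.229, and the call was lost without DSE mouse 2 or 4 or OVA mouse 3. The window on its gene side had 30.7% to 62.6% in saline mice and a call in the same comparison of -11.0 that was lost without DSE mouse 2 or OVA mouse 3.

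Further from the start, Bcl3 followed exposure. A flanking window centred at -4676 bp from the start (chr7:19827001-19828000, 124 to 218 calls) was at 24.2%, 41.6% and 35.3% in saline, 44.0%, 53.7% and 53.5% in OVA, and 42.7%, 41.2%, 54.4% and 50.9% in DSE mice. Saline and DSE mice overlapped. OVA minus saline was 16.2 percentage points, and the limma adjusted p was 0.132 there and 0.041 for OVA-exposed against saline. In intron 2 a window (chr7:19814001-19815000) was at 82.0% to 88.5% in saline, 70.9% to 81.9% in OVA and 71.2% to 76.2% in DSE mice, with a DSE difference of -11.3 that was lost without saline mouse 3. The 2 windows on its 3′ side had the same sign, at 70.9% to 76.6% in saline and 60.04% to 68.5% in exposed mice. Over exons 7 to 9, at the 3′ end, 2 windows were higher, at 48.8% to 55.1% in saline and 54.7% to 62.9% in exposed mice, where the DSE and OVA mice passed limma together (adjusted p = 0.016 and 0.0268) but neither window reached 10 percentage points.

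The pair of called Rel windows at the 3′ end (starting at chr11:23743001 and 23743501) held identical counts, so all their calls fell in the 500 bp they share, a part of intron 9 with 3 CpGs. Methylation there was 93.5%, 88.2% and 90.9% in saline, 94.4%, 78.3% and 90.0% in OVA, and 53.3%, 66.7%, 90.7% and 65.6% in DSE mice, from 20 to 83 calls. DSE mouse 3 lay among the saline and OVA mice. The lowest depth, 20 calls in OVA mouse 3, gives 90.0% a Wilson 95% interval of 69.9% to 97.2%, which covers counting error only. DSE minus saline was -22.6 percentage points (limma adjusted p = 0.1, exact permutation p = 0.114), a call that was kept when each of the 7 mice was left out, while DSE minus OVA, at -16.9, lost its call without DSE mouse 1 or 4 or OVA mouse 1.

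Nfkb2, Rela, Nfkbia and Tnfaip3 had no called window. For OVA against saline the pooled differences of their windows ran from -7.33 to 5.23 percentage points at Nfkb2, from -0.65 to 5.66 at Rela, from -9.81 to 3.91 at Nfkbia and from -2.98 to 7.34 at Tnfaip3. Rela encodes the main activating subunit, and Nfkbia encodes IkappaB alpha, the inhibitor that is resynthesised first after activation. At 1 window each, Nfkb2, Nfkbia and Tnfaip3 had a limma adjusted p under 0.05 for OVA-exposed against saline. The Nfkb2 window covers exons 9 to 13 and was at 13.8% to 14.8% in saline and 8.5% to 10.8% in exposed mice. The Nfkbia window, centred at -4353 bp from the start, was at 41.5% to 46.3% and 33.6% to 39.4%. The Tnfaip3 window, at -1590 bp, was at 46.9% to 47.6% and 52.1% to 60.3%. In each of these the exposed and saline mice did not overlap.

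Among 42 other genes of the pathway 40 had at least 3 windows. In limma on locus means 1 was higher and 1 lower in OVA than in saline, none passed for DSE against OVA, and 4 were higher and 4 lower in DSE than in saline. The 2 and 8 genes of 40 stand against a background of 12.5% and 18.8% of all loci, so these counts are not a result about the list. Of 4 kinase genes (Chuk, Ikbkb, Ikbkg and Map3k14) none passed in these comparisons. Of 15 adaptor and upstream kinase genes Tab1 rose by 2.79 percentage points in DSE against saline, while Tab2 changed by -3.17 and Birc3 by -3.83. Of 7 further inhibitors and deubiquitinases Nfkbid, a nuclear IkappaB gene, was at 39.9% ± 1.02 (SD) in saline, 35.1% ± 2.75 in OVA and 33.6% ± 2.14 in DSE mice and passed in DSE (difference -6.27, limma adjusted p = 0.0167). Of the 3 genes of the linear ubiquitin ligase complex Sharpin rose in DSE, by 2.58.

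Of 14 target genes 12 were tested. Tnf, which encodes the cytokine that both triggers and follows NF-kappaB activation, had locus methylation of 42.1% ± 2.37 in saline, 35.5% ± 1.65 in OVA and 36.1% ± 1.53 in DSE mice, and fell in both exposed groups (-6.58 and -5.92 percentage points, limma adjusted p = 0.0168 and 0.0138). Bcl2l1, a survival gene, rose in both, from 31.3% ± 1.30 to 37.2% ± 1.01 and 37.4% ± 1.39 (5.90 and 6.12, limma adjusted p = 0.00953 and 0.00466). Cxcl1, a neutrophil chemokine gene, rose by 4.01 in DSE mice, and its difference in OVA was 3.30 at a limma adjusted p of 0.0886. The median difference over the 40 genes was 0.52 percentage points for OVA and 0.61 for DSE against saline.

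The loci whose means over the 10 mice followed that of Rel most closely, by Pearson's r, were Gm1123 (0.94), Gm30505 (0.93) and Nemp2 (0.93), the best of all loci that share no window with Rel. Their saline means were 79.4%, 66.0% and 46.9%. The Rel means used here include the 4 windows of low depth, without which DSE minus OVA was -0.62 percentage points. These r values were picked as the highest of all loci compared over only 10 mice, and were not tested. The same 10 libraries underlie all these values.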

How the data were processed

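Lung DNA of 10 mice was profiled by SureSelect Methyl-seq, a bisulfite sequencing of captured regions. The submitters' processing notes name cutadapt 1.10 (adapter removal), Bismark 0.19.0 (alignment, mm10) and methylKit 1.0.0 (window sums), while the study's methods name other versions. The deposited values are unscaled counts of CpG calls, methylated and unmethylated, which the authors summed for each mouse over 1000 bp, moving by 500 bp. The lowest count in any mouse is 10.

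Here percent methylation was computed per mouse, and windows with fewer than 20 calls in any mouse were left out. Each window's pooled calls entered a logistic model with a likelihood ratio test for group and Benjamini-Hochberg adjustment over all windows (Python 3.11.15, scipy 1.17.1). Loci, and M-values with a pseudocount of 1, were tested with limma 3.58.1 in R 4.3.3. Two-sided exact permutation tests were used for single values and cannot go below 0.1 for 3 mice against 3, 0.0571 for 4 against 3 and 0.0167 for 7 against 3. The windows named by rule are, for each gene, that nearest the start and those with the largest called rise and fall. All other named windows fall outside this rule. They are neighbours or were picked after the results were seen, whether or not this is said where they are named. Promoters reach 1 kb from a curated start, and exons are numbered on the longest curated transcript. The members and lists were chosen with earlier results of these data known. Alternatives are given in the closing section. The tests were checked on simulated data. RNA-seq was not analysed here.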

Additional observations from a re-analysis of the deposited data

Results flagged for a closer look

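Among 31 values of the 4 DSE mice, the locus methylation of Tnfaip3 had a mouse far from the others. The DSE mice were at 28.5%, 29.8%, 28.6% and 28.7%, and the gap of mouse 2 to the next took 0.845 of the range, above Dixon's 95% critical value for 4 samples. Chance flags about 1 in 20 such groups. Groups of 3 mice were not tested in this way.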

How the results depend on the processing

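The 14, 5, 18 and 16 member windows called for OVA against saline, DSE against OVA, DSE against saline and OVA-exposed against saline became 0, 0, 0 and 0 in the F test and 0, 0, 0 and 7 in limma. Limma at an adjusted p under 0.05 with no minimum difference, chosen after seeing the data, gave 0, 1, 19 and 30. Windows that do not overlap gave 8, 2, 11 and 9, where every second window was tested. A minimum of 50 calls gave 3 for DSE against OVA. Leaving out each mouse gave 2 to 6 for DSE against OVA, with 3 without DSE mouse 2, 2 without DSE mouse 4 and 3 without OVA mouse 1, and 12 to 20, 15 to 26 and 14 to 23 in the other comparisons. Of the called windows 9, 1, 12 and 9 were kept without each mouse in turn. With the replicate block the counts were 14, 5, 18 and 16 and no locus was called. Except for limma with no minimum difference, the shares of all windows called under these alternatives are not given here. These counts are thus not a result about the members. The replicate numbers do not pair the mice, since deviations of mice with the same number correlated at -0.03 to 0.08.

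No member locus was called in the main analysis. Without flanks Nfkbie was called in OVA, DSE and OVA-exposed mice against saline, 1 locus in each. Pooled calls gave 4 loci for DSE against OVA and 4 for DSE against saline, all higher. The share of all loci that passed with pooled calls is not given here, so these counts are not a result about the members. Pooling also reversed Rel to 2.67 and 1.82 percentage points (limma). The cause was not tested. Leaving out each mouse gave 0 to 1 loci for DSE against saline, with Relb called without DSE mouse 1 and Rel without DSE mouse 3. Of 540 recomputed locus differences 11 came to pass the threshold, 2 reversed and 50 shifted by more than their standard error without passing. The other 477 did neither, where those on a log scale were compared only by the threshold.

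With 3 or 4 mice a group, small differences were not detectable, and windows of 20 to 80 calls have wide intervals.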
